A study of Arabidopsis thaliana with 51 samples.

Results

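The transcripts described here are those that dropped over 10 h in Arabidopsis thaliana seedlings that lacked the receptor for the peptide they were given. A probe set was taken as a member when its mean log2 value at 10 h, minus that of untreated seedlings of the same line, was -2 or lower (a 4-fold fall) both in efr-1 given elf18 and in pepr1-1 pepr2-3 given Pep2. Of 14568 probe sets kept for having 3 or more arrays at log2 5 or above, 247 (1.70%) met both conditions, while 298 (2.05%) met the condition in efr-1 and 328 (2.25%) met it in pepr1-1 pepr2-3. Of the 247 members, 101 are paired with 1 gene, 4 with several genes, and 142 carry no gene name here, so that statements on named genes cover less than all members. The members were thus selected on the measured 10 h changes of these 2 lines, and those changes are given below as descriptions without a test.

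Whole seedlings were measured on 51 Affymetrix ATH1 arrays, 3 biological replicates in each of 17 groups. The peptides were elf18, a fragment of a bacterial elongation factor, and Pep2, a plant danger peptide, both at 1 µM. The line efr-1, without a working elf18 receptor, was sampled after 10 h of elf18 and untreated at 0 h. The line pepr1-1 pepr2-3, without either Pep receptor, was sampled after 2 h and 10 h of Pep2 and at 0 h. The ethylene-insensitive line ein2-1 was sampled after 2 h and 10 h of elf18, after 2 h of Pep2 and at 0 h. The line bak1-3, which lacks a co-receptor used by both receptor systems, was sampled after 2 h and 10 h of Pep2 and at 0 h. Wild type (WT) was sampled after 2 h and 10 h of each peptide and at 0 h. All seedlings spent 5 to 6 days on agar plates, then 5 to 6 more in a sucrose-containing liquid culture, with 12 h of light a day. Each mutant was represented by 1 line, and no seedlings without peptide were sampled at 2 h or 10 h. Elapsed time, handling at 0 h and peptide cannot be told apart within a line, and the hour of the day at harvest is not given in the sources used here.

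As background, several systems set transcript levels over hours in seedlings. The circadian clock of a plant alternates morning and evening transcription factors, and genes of light harvesting, metabolism and growth follow it over the day. Low oxygen in tissue, as in submerged seedlings, stabilises a group of ethylene response factors that switch on a core set of low-oxygen genes, and this set goes off when oxygen returns. Heat shock factors act in a like way on chaperone genes, which help proteins fold under heat and other stress. The elf18 and Pep receptors, with the co-receptor BAK1, act the other way on many genes: they start a broad defence response and raise its transcripts.

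The receptor lines were checked first. EFR, the elf18 receptor, had log2 values of 2.16, 2.16 and 2.19 in efr-1 after 10 h and 2.29, 2.16 and 2.16 in untreated efr-1, all close to the lowest value of 2.08 in the table. It had 7.16, 6.83 and 6.83 in WT after 10 h of elf18, against 3.39, 3.42 and 2.84 in untreated WT. Of 6 measured marker genes of the early defence response, EFR among them, all 6 were called higher in WT after 10 h of elf18 and 4 after 10 h of Pep2. None was higher by 1 or more in efr-1 after 10 h, while 2 were in pepr1-1 pepr2-3 after 10 h of Pep2, WRKY53 with 1.12 and EFR with 1.05. None was in pepr1-1 pepr2-3 at 2 h. The lowest correlation between 2 replicate arrays of a group was 0.992 to 0.997, depending on the group. One array stood apart for the members: in ein2-1 after 10 h of elf18, the median log2 value over the members was 6.71 on replicate 1, against 5.43 and 5.57 on the other two. The medians of Bacillus spike-in probe sets, which measure RNA added at the bench and not plant RNA, differed between groups. Of 17 such probe sets, 9 met the membership rule, and all were left out.

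In the 2 receptor lines, the median member change at 10 h was -3.20 in efr-1 and -3.13 in pepr1-1 pepr2-3. The most negative mean of both changes belonged to a probe set that carries no gene name here, with -9.27 in efr-1 and -9.15 in pepr1-1 pepr2-3. Among named genes, AT3G29970, which encodes a B12D-like protein, changed by -7.76 in efr-1 and -9.03 in pepr1-1 pepr2-3. It was followed by AT3G21670 (NPF6.4, a nitrate transporter), AT2G27420 (a papain-like cysteine protease), AT5G48490 (a lipid transfer protein-like gene) and AT1G48100 (a polygalacturonase-like gene). The spike-in median changed by -2.41 in efr-1 and -2.05 in pepr1-1 pepr2-3 over the same arrays. At 10 h, 7 members in efr-1 and 5 in pepr1-1 pepr2-3 were within 0.1 of the lowest table value, and none was there at 0 h. This count can miss members at a higher bottom value of their own probe set. AT1G69570, for example, had a mean of 3.02 in pepr1-1 pepr2-3 at 10 h with almost no spread between arrays. At the edge of the rule, AT3G22550 was just inside with -2.01 in both lines. AT2G04050 was just outside with -1.98 in efr-1 and -3.39 in pepr1-1 pepr2-3.

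**Figure D1:**
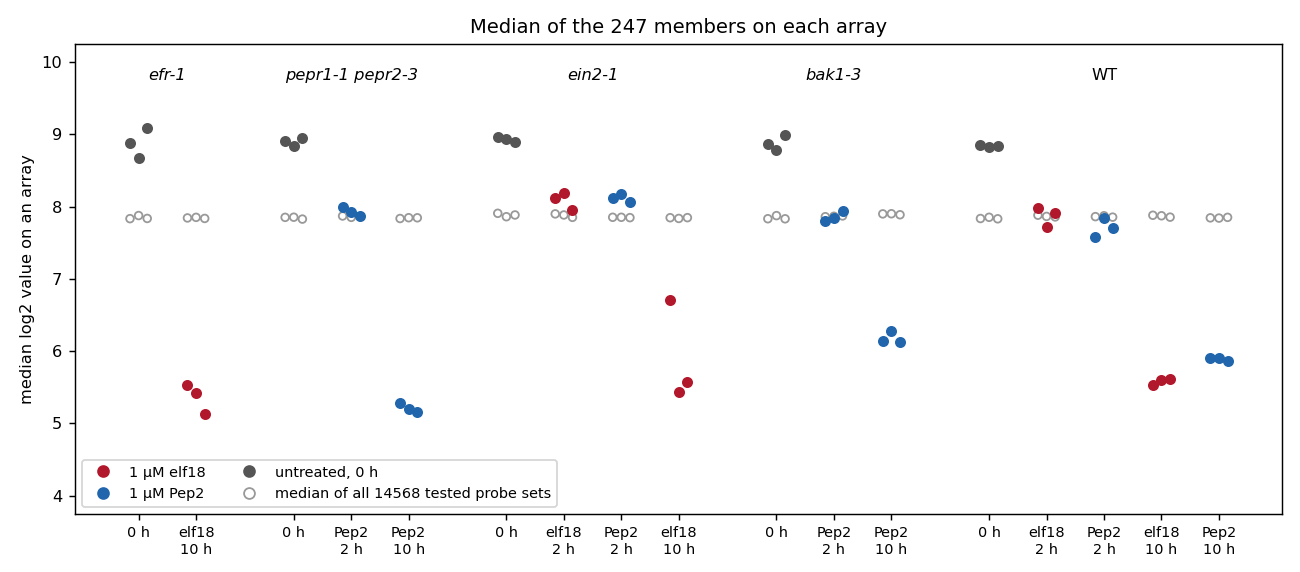
The median log2 value over the 247 members on each array (filled points, vertical axis), by line and time with the peptide shown by colour, and over all tested probe sets (open points). Arrays at 10 h lie at or below 6.71 and untreated arrays at or above 8.68, with the 2 h arrays between them.

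The next question was whether the same transcripts also fell in seedlings that do perceive the peptide. They did in most cases. In WT after 10 h of elf18, 213 members were called lower and 14 higher, where called means a Benjamini-Hochberg adjusted p under 0.05 and at least a 2-fold difference in limma. Over all tested probe sets, 13.5% were called lower and 13.4% higher in that comparison. The median member change was -2.88, against -0.05 for all tested probe sets. In WT after 10 h of Pep2, 226 members were called lower and 6 higher (8.85% and 8.57% of all tested), with a median change of -2.83. Both comparisons use the same untreated WT arrays.

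The same direction was found in the other lines. In bak1-3 after 10 h of Pep2, 203 members were called lower and 14 higher (16.9% and 15.1% of all tested), with a median change of -2.64. In ein2-1 after 10 h of elf18, 210 were called lower and 15 higher (12.8% and 12.5% of all tested), with a median change of -2.67. Without replicate 1 of that ein2-1 group, 213 were called lower and 12 higher, and the median change was -2.87. All 4 responses together left 188 members called lower in every one of them, compared with 4.12% of all tested probe sets. The spike-in median moved with some of these falls and not with others: it changed by 0.03 in WT given elf18, -2.08 in WT given Pep2, -1.19 in bak1-3 and -1.93 in ein2-1. In WT given elf18 the spike-in medians of single arrays were 4.92, 6.53 and 4.95, against 5.32, 5.29 and 5.80 at 0 h, so that treated arrays lay on both sides of the untreated ones. The part of the spike-in differences in the member changes was not tested.

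At 10 h, every treated array lay below every untreated array of its line for 220 members in WT given elf18 for 10 h (38.3% of all tested probe sets), and for 225 in WT given Pep2 (29.5%). The count was 210 in bak1-3 (38.1%) and 211 in ein2-1 (38.3%). In whole seedlings, a fall in a transcript and a loss of the cells that hold it cannot be told apart. Both root hair expansin genes measured, EXPA7 and EXPA18, were called lower in bak1-3 at 10 h (-1.40 and -1.33) and in none of the other 3 tested 10 h responses. Their part in the member changes was not tested.

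**Figure D2:**
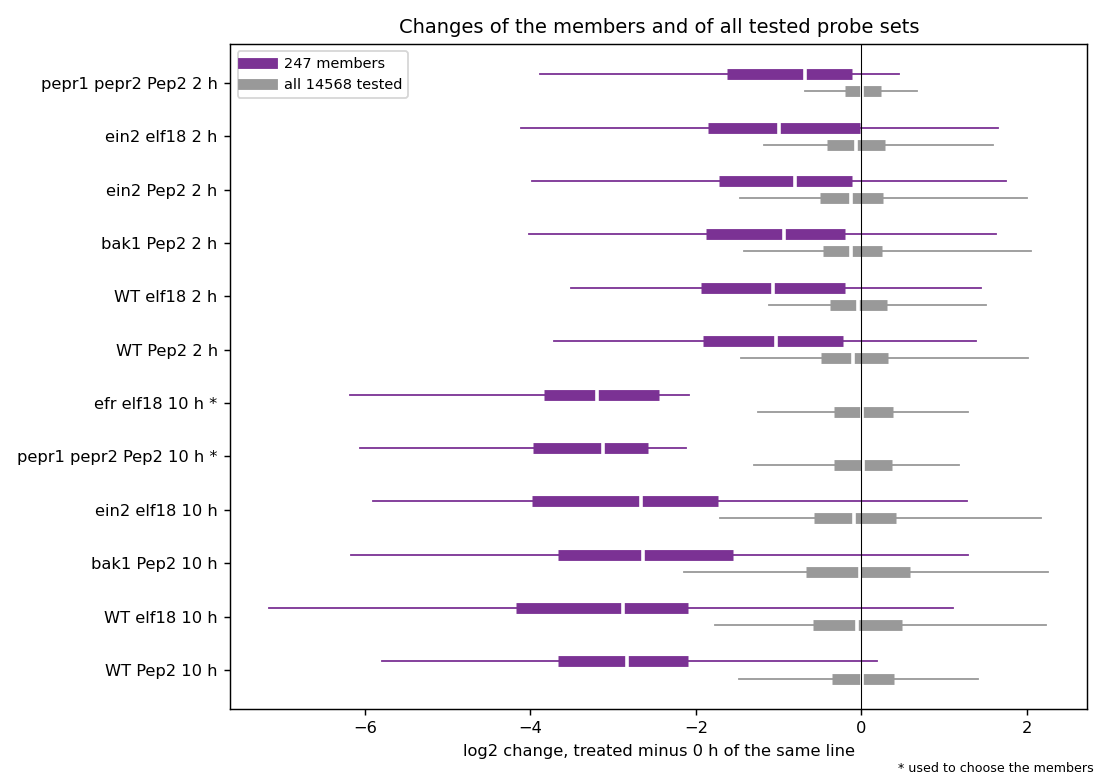
Distribution of log2 changes against untreated seedlings of the same line, for the members (purple) and all tested probe sets (grey), with the median as a white tick, the quartiles as a thick bar and the 5th to 95th percentiles as a thin line. Asterisks mark the contrasts that chose the members; at 10 h the member medians lie between -3.20 and -2.64 in every row, while all tested probe sets centre near 0.

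**Figure D3:**
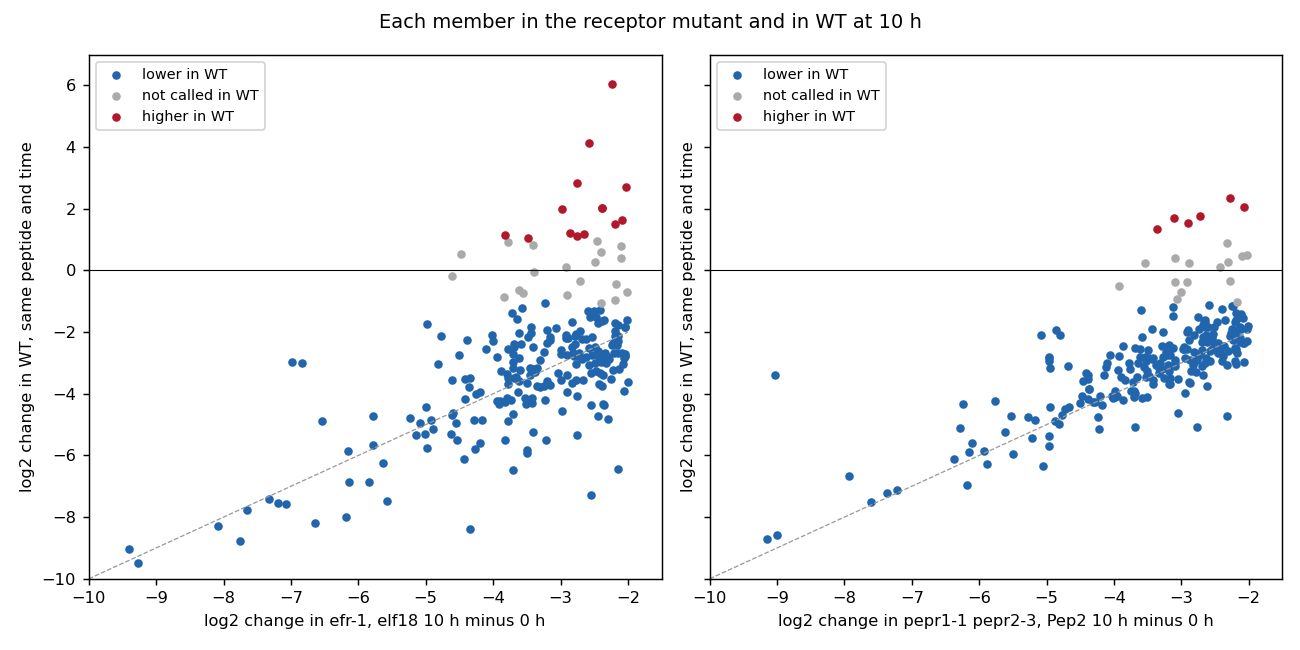
Each member's log2 change at 10 h in the receptor mutant (horizontal axis) and in WT under the matching treatment (vertical axis), coloured blue where called lower, red where called higher and grey where not called in WT. The dashed line marks equal change; most points follow the blue cloud, with 14 red points for elf18 and 6 for Pep2.

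Chaperone genes formed one of the larger groups among the named members, with 8 genes. The families were assigned by hand after the members were known. All 8 were called lower in each of the 4 tested 10 h responses, with medians of -2.31 in WT given elf18 and -3.45 in WT given Pep2. Hop3, a co-chaperone that links Hsp70 and Hsp90, had 4.99, 5.27 and 6.27 in WT after 10 h of elf18 and 3.87, 4.54 and 5.31 after 10 h of Pep2, against 8.28, 8.43 and 8.01 in untreated WT. No treated array reached an untreated one. The change was -2.73 (SE 0.302, adjusted p = 3.7e-10) for elf18 and -3.67 (adjusted p = 5.3e-13) for Pep2. In the receptor lines Hop3 changed by -4.51 in efr-1 and -3.17 in pepr1-1 pepr2-3.

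AT1G54050, a small heat shock protein gene, had the most negative change of these 8 genes in WT with each peptide. Its values were 4.45, 4.46 and 4.68 in WT after 10 h of elf18 and 5.64, 5.30 and 5.56 after 10 h of Pep2, against 10.76, 10.75 and 10.44 in untreated WT. Treated arrays all lay far below the untreated ones. The change was -6.12 (SE 0.338, adjusted p = 2.1e-18) for elf18 and -5.15 for Pep2 (adjusted p = 1e-15). AT5G48570 (an FKBP-type immunophilin induced by heat) changed by -2.81 with elf18 and -3.44 with Pep2. AT2G20560 (a DnaJ-type co-chaperone) changed by -2.13 with elf18 and -3.46 with Pep2, and Fes1A, an Hsp70 nucleotide exchange factor, by -1.70 with elf18 and -1.96 with Pep2. AT1G53540, another small heat shock protein gene, fell by 1.92 with Pep2, but was not called without replicate 2 of untreated WT (-1.53). AT5G51440 likewise lost its call in ein2-1 given elf18 (-1.12) without replicate 3 at 10 h (-0.53), or without replicate 1 or 3 at 0 h (-1.02 and -1.10). A list of 48 heat shock and chaperone genes, written after the values were seen, had 13 measured genes, of which these 8 are members. Of the 5 outside the members, 2 were called lower (AT4G21870 and AT5G37670) and 1 higher (AT2G29500) in WT given elf18, and 1 lower (AT4G21870) and 0 higher in WT given Pep2.

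In WT, most of the chaperone genes moved late. At 2 h in WT, 2 of 8 were called lower with elf18 and 3 of 8 with Pep2, with medians of -0.45 for elf18 and -0.66 for Pep2. AT1G54050 was an exception, called lower in all 5 tested 2 h responses of WT, bak1-3 and ein2-1. Its WT mean was 7.01 after 2 h of elf18 and 6.52 after 2 h of Pep2, against 10.65 untreated. AT5G48570 and Fes1A were each called higher in at least 1 of the 5. Hop3 had changes of 0.38 with elf18 and 0.24 with Pep2 in WT at 2 h, neither called. The mitochondrial small heat shock protein gene AT5G51440 stayed between 9.10 and 9.89 on all 6 WT arrays at 2 h, against 9.44, 9.45 and 9.08 at 0 h. At 10 h it had 6.89, 7.16 and 7.59 with elf18 and 3.46, 6.11 and 5.50 with Pep2. The WT arrays of the 2 peptides did not overlap at 10 h, and elf18 minus Pep2 was 2.19 (adjusted p = 8.9e-05). The late timing did not hold for most of these genes in pepr1-1 pepr2-3. After 2 h of Pep2 in that line, AT1G54050, AT2G20560, AT1G53540, Fes1A and AT1G66080, another of the 8, had already changed by -1 or less. Hop3, AT5G48570 and AT5G51440 had not. These changes carry no test.

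Low-oxygen genes were low already at the first time point. The 9 genes of this group include AT3G10040 (HRA1, a trihelix factor that restrains the low-oxygen response), AT3G03270 (a universal stress protein family gene), AT4G10270 and AT4G33560 (wound-responsive family) and AT2G17850 (rhodanese family). At 2 h in WT, 9 were called lower with elf18 and 8 with Pep2, with medians of -3.60 for elf18 and -3.42 for Pep2. The median of the same genes at 2 h in pepr1-1 pepr2-3 given Pep2 was -4.92. At 10 h in WT, 8 were called lower with each peptide, with medians of -3.77 for elf18 and -2.81 for Pep2.

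AT4G10270 shows the time course. It had 4.14, 3.60 and 2.93 in WT after 2 h of elf18 and 3.85, 3.28 and 3.23 after 2 h of Pep2, against 10.55, 9.98 and 9.81 at 0 h. At 10 h it had 3.23, 5.52 and 5.14 with elf18 and 6.29, 7.48 and 5.98 with Pep2. Treated arrays lay well below the untreated ones at both times, and the Pep2 arrays at 10 h lay above all those at 2 h. The change at 2 h was -6.56 with elf18 and -6.66 with Pep2, and at 10 h it was -5.49 with elf18 and -3.53 with Pep2. From 2 h to 10 h of Pep2 the value increased by 3.13. In pepr1-1 pepr2-3 it had 3.91, 5.25 and 6.15 after 2 h of Pep2 and 6.55, 7.29 and 7.50 after 10 h, against 11.76, 11.45 and 11.27 untreated. There too the arrays at 10 h lay above those at 2 h.

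Not every low-oxygen gene followed. AT4G24110 was not called in WT at 10 h with either peptide (0.41 with elf18, -0.38 with Pep2), whereas it changed by -2.11 in efr-1 and -3.10 in pepr1-1 pepr2-3. AT3G10040 had 2.15, 2.12 and 2.15 in WT after 10 h of elf18, against 5.26, 4.24 and 4.07 at 0 h, so its change of -2.38 ended close to the lowest table value. Of 39 low-oxygen genes listed after the values were seen, 21 were measured, and 9 of these are the members. Of the 12 outside the members, 3 were called lower and 0 higher in WT at 2 h of elf18, and 5 lower and 1 higher at 2 h of Pep2. At 10 h in WT, 3 of the 12 were called lower and 3 higher with elf18, and 2 lower and 1 higher with Pep2. PDC2, a pyruvate decarboxylase of fermentation, was called higher in WT with elf18 (1.72) and with Pep2 (2.73), and it changed by 1.45 in both receptor lines. In pepr1-1 pepr2-3 at 2 h, 7 of the 12 changed by -1 or less.

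**Figure D4:**
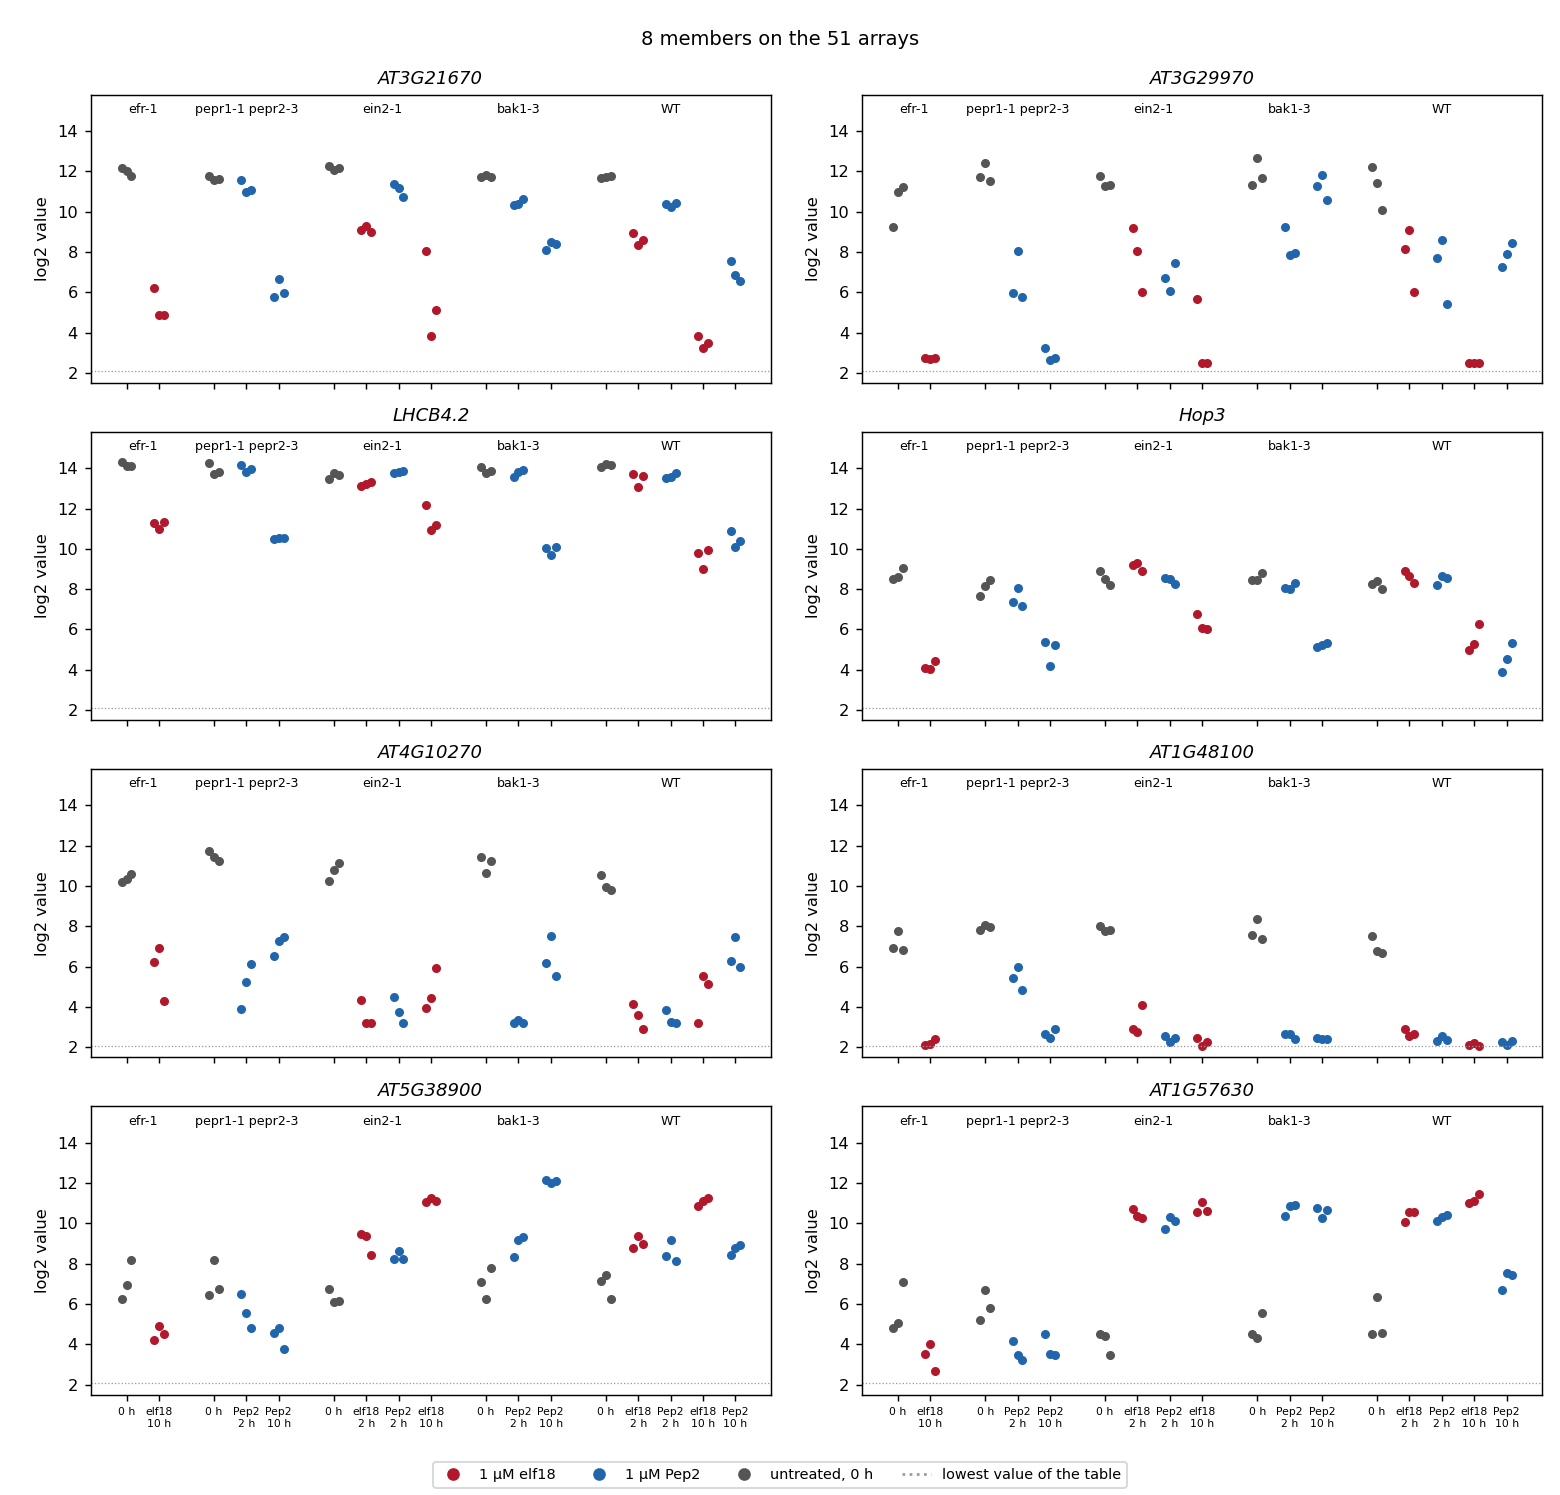
Log2 values of 8 members on every array (points), by line and time, with untreated arrays at the low end of time. The chaperone gene Hop3 and LHCB4.2 are near their 0 h level at 2 h and low at 10 h, AT4G10270 is low already at 2 h in every line sampled then, AT1G48100 is lower at 2 h in WT, ein2-1 and bak1-3 than in pepr1-1 pepr2-3, and AT5G38900 and AT1G57630 are high in treated WT and low in the receptor lines at 10 h.

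Transporter genes made up 9 members. AT3G21670 (NPF6.4) had 6.23, 4.89 and 4.89 in efr-1 after 10 h of elf18, against 12.15, 11.99 and 11.78 untreated, and 5.74, 6.66 and 5.98 in pepr1-1 pepr2-3 after 10 h of Pep2, against 11.78, 11.56 and 11.64 untreated. In WT it had 3.83, 3.21 and 3.47 after 10 h of elf18 and 7.56, 6.87 and 6.56 after 10 h of Pep2, against 11.65, 11.72 and 11.76 untreated. The 2 peptides gave separate ranges in WT, both below every untreated array. The change was -8.20 with elf18 (SE 0.473, adjusted p = 7.3e-18) and -4.71 with Pep2 (adjusted p = 8.9e-11), a difference of -3.50 (adjusted p = 8.4e-08). Its relative AT2G26690 (NPF6.2) changed by -2.96 with elf18 and -2.46 with Pep2.

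Over all 9 transporter genes, 8 were called lower in WT with elf18 and 9 with Pep2 at 10 h, and 9 in bak1-3 and 8 in ein2-1. The exception with elf18 was AT2G04070, a MATE-type efflux carrier gene, with -0.19 in WT and 0.40 in ein2-1. With Pep2 it changed by -4.06 in WT, and elf18 minus Pep2 was 3.88 (adjusted p = 3.8e-09). The mitochondrial carrier gene AT5G26200 and AT2G36630, a TauE/SafE family gene, were not called lower at 2 h in any of the 5 tested responses and were called lower in all 4 at 10 h.

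Genes of light and the chloroplast contributed 4 members, all called lower in each of the 4 tested 10 h responses. LHCB4.2, a light-harvesting protein of photosystem II, had 9.79, 8.98 and 9.96 in WT after 10 h of elf18 and 10.91, 10.07 and 10.39 after 10 h of Pep2, against 14.04, 14.20 and 14.17 untreated. At 2 h its WT values were 13.07 to 13.75, just below the untreated arrays, and neither peptide gave a call. The change at 10 h was -4.56 with elf18 (SE 0.223, adjusted p = 6e-20) and -3.68 with Pep2 (adjusted p = 1.2e-16). AFR, a kelch-repeat F-box protein of far-red light signalling, changed by -3.33 with elf18 and -3.25 with Pep2. AT1G18810 (PKS3, a phytochrome kinase substrate) changed by -4.82 with elf18 and -3.07 with Pep2. AT1G44000, a STAY-GREEN-like gene, changed by -3.02 with elf18 and -2.04 with Pep2. LHCB4.2 was the only one of 3 measured light-harvesting genes of the list to be a member, and 1 of the 3 was called lower in each 10 h response.

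Cell wall and secreted proteins gave 8 members, among them AT5G48490 and AT2G27420, the named members with the most negative mean change over the 4 tested 10 h responses. The group median at 10 h was -4.31 in WT given elf18, -3.86 in WT given Pep2, -4.96 in bak1-3 and -4.01 in ein2-1. All 8 were called lower in WT and bak1-3, and 6 in ein2-1. AT1G48100, a polygalacturonase-like gene, had 2.12, 2.24 and 2.08 in WT after 10 h of elf18 and 2.28, 2.12 and 2.33 after 10 h of Pep2, against 7.53, 6.78 and 6.70 untreated. It had already reached 2.91, 2.57 and 2.67 after 2 h of elf18. Both times ended near the lowest table value, so the changes at 10 h, -4.86 with elf18 and -4.76 with Pep2, are limited by it.

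At 2 h in WT, 6 of the 8 were called lower with each peptide, with medians of -2.41 for elf18 and -3.38 for Pep2, while the median in pepr1-1 pepr2-3 at 2 h was -0.48. AT2G27420 changed by -5.25 with elf18 and -2.07 with Pep2 at 2 h in WT (difference -3.19, adjusted p = 9.7e-10), and by 0.69 in pepr1-1 pepr2-3. AT1G60590, another polygalacturonase-like gene, changed by -2.82 with elf18 and -4.10 with Pep2 at 2 h in WT and by 0.05 in pepr1-1 pepr2-3. The pepr1-1 pepr2-3 values carry no test, and the difference between lines was not tested.

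Of the 6 regulators among the named members, 5 were called lower in WT with each peptide at 10 h, and 4 in bak1-3 and in ein2-1. ARR15, a type-A response regulator of cytokinin signalling, changed by -2.67 with elf18 and -3.04 with Pep2 at 10 h, and was already called lower at 2 h. SKP2A, an F-box protein, changed by -1.97 with elf18 and -1.84 with Pep2 in WT, and by -0.08 in bak1-3 given Pep2, not called. AT1G69570 (CDF5, a DOF factor whose family represses flowering genes) had 7.19, 7.22 and 7.07 in WT after 2 h of elf18 and 5.51, 5.64 and 4.83 after 2 h of Pep2, against 5.12, 4.86 and 4.84 untreated. The elf18 arrays lay above all others, and elf18 minus Pep2 was 1.83 (adjusted p = 3.7e-09). At 10 h it had dropped below every untreated array with both peptides (-2.14 with elf18 and -1.90 with Pep2).

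A small set of members went up where the peptide was perceived. At 10 h, 20 members were called higher in at least 1 of the 4 tested responses (21.3% of all tested probe sets). In all 4, 5 were called higher (2.02% of members, against 4.84% of all tested). Members were thus called higher less often than probe sets at large: 91.9% were higher in none of the 4, against 78.7% of all tested. Of the 11 named genes grouped as defence and redox, 7 were called higher and 2 lower in WT given elf18, and 3 higher and 5 lower in WT given Pep2. AT5G58120, a TIR-NBS-LRR immune receptor gene, had the smallest called increase with elf18 (1.06), and it was not called without replicate 2 of untreated WT (0.92). In bak1-3, 6 were higher and 3 lower, and in ein2-1, 7 higher and 2 lower.

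AT1G57630, which encodes a Toll/interleukin receptor (TIR) domain protein, gave the largest mean increase of the named members over the 4 tested 10 h responses. It had 10.99, 11.12 and 11.44 in WT after 10 h of elf18 and 6.69, 7.53 and 7.42 after 10 h of Pep2, against 4.49, 6.37 and 4.56 untreated. In efr-1 it had 3.50, 4.03 and 2.70 after 10 h of elf18, against 4.83, 5.04 and 7.07 untreated. All treated WT arrays exceeded all untreated WT arrays, and all treated efr-1 arrays were below all untreated ones. The untreated efr-1 mean of 5.6 was raised by the array at 7.07, and the 10 h mean was 3.4. In pepr1-1 pepr2-3 the means were 5.9 untreated and 3.8 at 10 h. Both falls were near the membership limit of -2. The WT change was 6.04 with elf18 (SE 0.455, adjusted p = 1.5e-14) and 2.07 with Pep2 (adjusted p = 0.00021), a difference of 3.97 (adjusted p = 2.4e-09).

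AT5G38900, a DSBA-like thioredoxin-fold gene, had 10.87, 11.09 and 11.24 in WT after 10 h of elf18 and 8.42, 8.78 and 8.92 after 10 h of Pep2, against 7.16, 7.43 and 6.23 untreated. In efr-1 it had 4.24, 4.90 and 4.53 after 10 h, against 6.24, 6.95 and 8.19 untreated. The WT and efr-1 arrays at 10 h were on opposite sides of the untreated ones. The WT change was 4.13 with elf18 (SE 0.43, adjusted p = 8.7e-11) and 1.76 with Pep2 (adjusted p = 0.00071). AT1G33030, an O-methyltransferase family gene, changed by 2.84 with elf18 and 1.72 with Pep2. Others had both directions: SIS, a salt-induced serine-rich gene, changed by 1.52 with elf18 and -1.51 with Pep2, and AT1G72060, a serine protease inhibitor-like gene, by 2.69 with elf18 and 0.24 with Pep2, the last not called. NDB4, an external NAD(P)H dehydrogenase of mitochondria, was called lower in all 4 (-3.76 in WT given elf18).

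**Figure D5:**
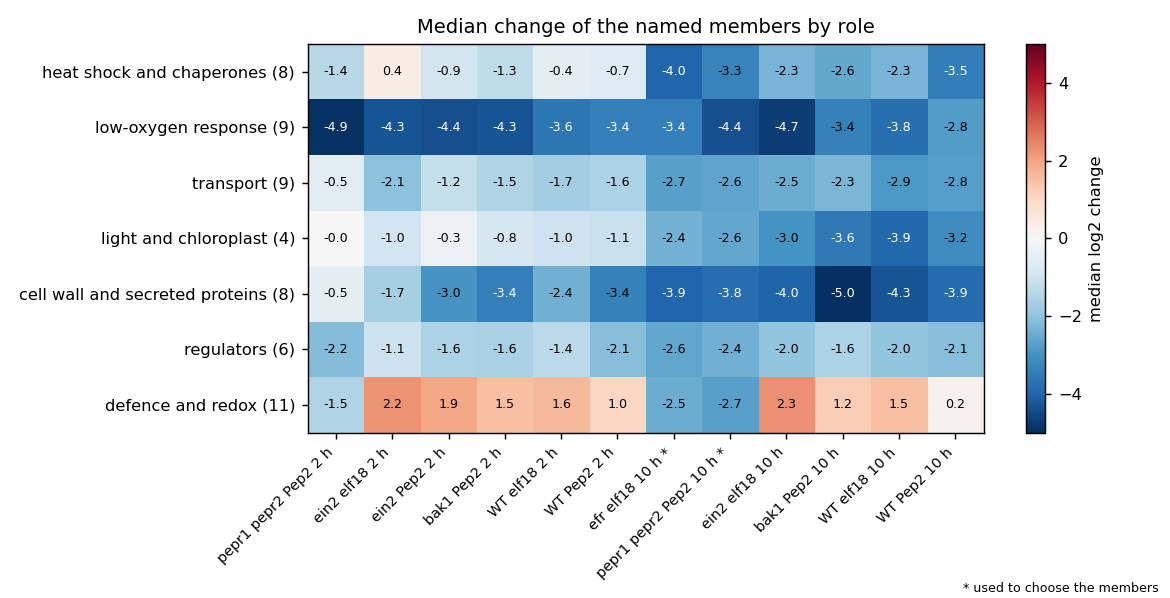
Median log2 change of each group of named members (rows) in each response (columns), against untreated seedlings of the same line. Asterisks mark the contrasts that chose the members; the defence and redox group has a median of 1.52 in WT after 10 h of elf18 and -2.46 in efr-1, and the low-oxygen group has -4.92 at 2 h in pepr1-1 pepr2-3.

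At 2 h the members stood between their untreated and 10 h levels. In WT, 128 were called lower and 16 higher with elf18 (6.34% and 8.16% of all tested), with a median of -1.07, and 121 lower and 17 higher with Pep2 (10.0% and 11.0%), with a median of -1.04. In bak1-3 given Pep2, 115 were lower and 18 higher (9.38% and 10.6%). In ein2-1, 121 were lower and 23 higher with elf18 (7.11% and 8.83%), and 106 lower and 20 higher with Pep2 (10.1% and 10.6%). In pepr1-1 pepr2-3 at 2 h, 96 members changed by -1 or less and 5 by 1 or more, where 2.28% and 1.46% of all tested did so, and the median was -0.68. The spike-in medians over these 2 h responses changed by -1.87 in WT given elf18, 0.85 in WT given Pep2, 0.18 in bak1-3, -2.90 in ein2-1 given elf18, -1.06 in ein2-1 given Pep2 and -0.44 in pepr1-1 pepr2-3.

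Some members fell early and others late by the definitions given here, but most of the members met neither definition. In all 5 tested responses at 2 h, 66 were called lower (2.30% of all tested). Of these, 29 have a gene name, among them 8 low-oxygen genes, the chaperone gene AT1G54050, ARR15, SKP2A, NDB4 and AFR. The median of the 66 in pepr1-1 pepr2-3 at 2 h was -1.61. Another 45 were called lower in none of the 5 at 2 h and in all 4 at 10 h (0.913% of all tested), among them Hop3, AT5G48570, AT5G51440, LHCB4.2, AT2G36630 and AT5G26200, with a median of -0.11 in pepr1-1 pepr2-3 at 2 h. Between 2 h and 10 h, 168 members were called lower and 7 higher in WT given elf18 (6.01% and 6.57% of all tested), and 169 lower and 7 higher in WT given Pep2 (10.4% and 9.25%). Without replicate 2 of WT at 10 h of Pep2, 4 were called higher. In bak1-3, 143 were lower and 26 higher (11.2% and 9.26%). In ein2-1 given elf18, 161 were lower and 5 higher (4.87% and 5.21%), with 9 higher when replicate 1 at 10 h was left out.

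The peptides differed in a minority of members. At 10 h in WT, elf18 minus Pep2 was called lower for 45 and higher for 34 (7.08% and 7.98% of all tested), with a median of -0.08. The spike-in median was higher by 2.09 with elf18 than with Pep2 at 10 h and changed by -2.88 in the same comparison at 2 h. AT3G29970 had 2.47 on all 3 arrays after 10 h of elf18 and 7.23, 7.92 and 8.42 after 10 h of Pep2, against 12.22, 11.44 and 10.10 untreated. The 3 groups did not overlap, and 2.47 is the lowest value of this probe set on any array, so the elf18 change and the peptide difference are limited by it. The changes were -8.78 with elf18 (SE 0.793, adjusted p = 2.2e-12) and -3.40 with Pep2 (adjusted p = 0.00044), a difference of -5.39 (adjusted p = 4.5e-07). In bak1-3 after 10 h of Pep2 it had 11.25, 11.83 and 10.59, against 11.32, 12.67 and 11.67 untreated, and was not called (-0.66). At 2 h of Pep2 its bak1-3 mean was 8.34, and it was called lower in all 5 tested 2 h responses. At 2 h, 21 members were called lower and 21 higher with elf18 than with Pep2 (4.10% and 3.81%), AT5G48490 being higher by 2.58 (adjusted p = 8e-05).

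Before any peptide, the ein2-1 line had 23 members lower and 17 higher than WT (2.24% and 2.29% of all tested). Leaving out replicate 1 of untreated ein2-1 gave 15 lower. M17, a late embryogenesis abundant-like gene, had 3.56, 4.66 and 4.02 in ein2-1, against 8.71, 8.52 and 6.50 in WT, without overlap (-3.83, adjusted p = 7e-06). SIS differed by -2.42 (adjusted p = 6.3e-08). Higher in ein2-1 were AT5G62130 (3.36), AT1G63530 (2.40), AT3G15310 (2.32) and the low-oxygen genes AT3G10040 (1.61) and AT4G24110 (1.64). The spike-in median was 0.83 higher in untreated ein2-1 than in untreated WT.

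The bak1-3 line had 0 members lower and 3 higher than WT at 0 h in limma (0.0206% and 0.0481% of all tested), and 29 members had an unadjusted p under 0.05. The 3 were AT1G63530 (2.00, adjusted p = 7.5e-05), AT3G10040 (1.64) and AT4G24110 (1.63). These counts are small and moved with single arrays: 1 was called higher without replicate 3 of untreated WT or without replicate 1 of untreated bak1-3, and 1 was called lower without replicate 3 of untreated bak1-3.

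The responses of the lines were then set against that of WT. For Pep2 at 10 h, the bak1-3 change minus the WT change was called lower for 11 members and higher for 50 (8.36% and 6.68% of all tested). Members with a less negative or more positive change in bak1-3 included AT1G57630 (3.70) and AT5G38900 (3.28). For elf18 at 10 h, the ein2-1 change minus the WT change was called lower for 13 and higher for 30 (1.99% and 2.53%). Without replicate 1 of ein2-1 at 10 h these were 19 and 21, and without replicate 2 of that group or replicate 2 of untreated WT, 8 were called lower. AT4G25250, a pectin methylesterase inhibitor gene, had 5.28, 5.54 and 5.62 in ein2-1 after 10 h of elf18, against 5.83, 5.92 and 6.79 untreated, and 2.08, 2.10 and 2.10 in WT after 10 h of elf18, against 5.91, 5.63 and 5.80 untreated. The ein2-1 arrays at 10 h were all above those of WT, and the difference in change was 2.99.

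At 2 h the differences between lines were few. For bak1-3 given Pep2 they were 2 lower and 1 higher (0.172% and 0.474% of all tested), with 32 members at an unadjusted p under 0.05. Leaving out 1 array gave 1 lower for every array except replicate 1 of untreated WT, replicate 2 of untreated bak1-3 and replicate 1 of bak1-3 at 2 h. No member was higher without replicate 1 or 3 of untreated WT, replicate 1 of untreated bak1-3, replicate 1 or 2 of WT at 2 h, or any array of bak1-3 at 2 h. For ein2-1 they were 3 lower and 9 higher with elf18 (0.680% and 0.693%) and 8 lower and 17 higher with Pep2 (1.26% and 1.36%). With elf18, 1 was lower without replicate 2 or 3 of untreated WT or replicate 1 of untreated ein2-1, 6 without replicate 1 of untreated WT and 5 without replicate 3 of untreated ein2-1, while 5 were higher without replicate 1 of ein2-1 at 2 h. With Pep2, the count of lower members was 13 without replicate 1 and 3 without replicate 3 of untreated WT, 4 without replicate 1 of untreated ein2-1, 5 without replicate 1 and 14 without replicate 3 of WT at 2 h, and 5 without replicate 3 of ein2-1 at 2 h. The count of higher members was 9 without replicate 1 of untreated ein2-1.

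Listed clock genes outside the members were read on the same arrays. Of 3 measured evening genes, 2 were called higher in each of the 4 tested 10 h responses and 1 was called lower in WT given elf18. COR27, an evening-phased gene of the cold and clock pathways, had 9.47, 8.94 and 9.03 in efr-1 after 10 h of elf18 and 8.73, 8.27 and 8.46 in pepr1-1 pepr2-3 after 10 h of Pep2. It was at 2.08 to 3.14 in every untreated line and at 2.08 to 2.16 at 2 h. In WT it had 8.40, 8.22 and 8.87 after 10 h of elf18 and 8.23, 8.27 and 8.36 after 10 h of Pep2, a change of 6.39 with elf18 (adjusted p = 6.8e-25) and 6.18 with Pep2. Its values at 10 h lay far above those at 0 h and 2 h in lines with and without the receptor. Its relative AT4G33980 changed by 4.53 with elf18 and 4.66 with Pep2 in WT, and by 5.10 in efr-1 and 4.74 in pepr1-1 pepr2-3. GI, another evening gene that acts in flowering and clock control, did not follow them: it changed by -0.38 in efr-1 and -0.03 in pepr1-1 pepr2-3, and by -1.07 in WT given elf18, where it was called lower, and was not called in the other 3. The 1 measured morning gene, AT5G52660 (a MYB-like factor), changed by -1.06 in efr-1 and -1.33 in pepr1-1 pepr2-3, and was called lower in ein2-1 given elf18 (-1.18) and in none of the other 3 tested 10 h responses.

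Other lists held few members. Of 4 measured nitrate-responsive genes, 3 were called lower and 1 higher in WT after 10 h of elf18, and 2 lower and 0 higher after 10 h of Pep2, with AT3G21670 the only member. Among 14 measured cell wall loosening genes (expansins and xyloglucan hydrolases), none was a member. At 10 h in WT, 7 of them were called lower and 0 higher with elf18, and 9 lower and 1 higher with Pep2. In bak1-3, 11 were lower and 1 higher, and in ein2-1, 6 lower and 2 higher. In efr-1, 4 changed by -1 or less and 3 by 1 or more, and in pepr1-1 pepr2-3, 5 and 1. The 6 measured early defence genes held no member either, and at 10 h 5 were called higher in bak1-3 and 6 in ein2-1.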

How the data were processed

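The authors deposited 1 table of log2 values for 22810 probe sets on 51 arrays, and GCRMA is named in the submitters' processing notes without a version. The deposited log2 values bottom out at 2.08, 27.4% of them lie within 0.1 of it, and array medians are 6.04 to 6.16. The table holds no scanner intensities, so that signal over background cannot be computed, and the number of arrays limits the precision. A further 64 control probe sets were left out. Normalization to a common distribution fixes the array medians, so changes are relative to the bulk of transcripts, and values near the lowest value understate a fall. Probe sets at 5 or more on at least 3 arrays were kept (14568, of which 7828 are paired with 1 gene).

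Tests used limma 3.58.1 in R 4.3.3, with 1 mean for each of the 17 groups, 34 residual degrees of freedom and Benjamini-Hochberg adjustment within a comparison over all kept probe sets. Tables and figures were made in Python 3.11.15 with pandas 2.3.3 and matplotlib 3.10.9. The procedure was tested on simulated data. The 12 arrays of efr-1 and pepr1-1 pepr2-3 at 0 h and 10 h chose the members, so no test is given for any comparison that uses them. The labels call the replicates biological. Same-numbered arrays shared little: the mean correlation of their deviations from the group means was 0.078, against -0.039 for different numbers, and every pair passed 0.1 in 3 comparisons only (ein2-1 at 2 h of Pep2, WT at 10 h against 2 h of elf18, and the ein2-1 baseline), so no pairing was assumed.

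Named genes are members paired with 1 gene: the 10 with the most negative mean change in the receptor lines, the 8 most and 8 least negative over the tested 10 h responses, the 8 most negative and 8 most positive in elf18 minus Pep2 at 10 h and over the tested 2 h responses, up to 5 in each direction in each baseline difference and each difference between lines, and members of a gene list or family. Families were assigned by hand from general knowledge after the members were seen. The members and lists were chosen with earlier results of these data known. The lists of heat shock and low-oxygen genes were written after the values were seen. A planned search for promoter motifs was not run, since no sequences were used here. Alternatives tried were quantile normalization, median centring, no filter or a filter at 7, no fold minimum, array weights, a variance trend on intensity, separate fits per comparison, each array left out in turn, blocking on the replicate number, and membership thresholds of -1.5 and -2.5.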

Additional observations from a re-analysis of the deposited data

Results flagged for a closer look

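These members changed by a different amount in a mutant than in WT under the same treatment, by limma's test of the difference itself. Each value is the mutant's log2 change minus that of WT. None of the causes was tested.

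For Pep2 at 10 h, bak1-3 minus WT was -3.30 for AT5G16030, -2.60 for AT2G17850, -2.30 for AT1G62500, -1.52 for AT3G10040 and -1.45 for AT1G63530. It was 1.95 for AT3G28270, 2.21 for AT1G73480, 2.74 for SIS, 3.28 for AT5G38900 and 3.70 for AT1G57630. AT3G28270 lost its call without replicate 3 of untreated WT (1.87), replicate 3 of untreated bak1-3 (1.86), replicate 1 of WT at 10 h (1.70) or replicate 2 of bak1-3 at 10 h (1.75). AT3G10040 and AT1G63530 already differed at 0 h, by 1.64 and 2.00 in bak1-3 minus WT.

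For elf18 at 10 h, ein2-1 minus WT was -3.37 for AT1G63530, -2.34 for AT3G15310, -1.89 for AT2G26690, -1.86 for AT4G24110 and -1.79 for AT2G40435. It was 1.87 for AT3G50560, 2.29 for AT5G48490, 2.35 for LHCB4.2, 2.99 for AT4G25250 and 4.34 for M17. Replicate 1 of ein2-1 at 10 h stood apart, and without it AT5G48490 was at 1.78 and lost its call. AT5G48490 also lost it without replicate 3 of untreated WT (2.16), replicate 1 of untreated ein2-1 (1.88), or replicate 1 or 2 of WT at 10 h (2.21 and 2.13). M17, AT1G63530, AT3G15310 and AT4G24110 differed before treatment, by -3.83, 2.40, 2.32 and 1.64 in untreated ein2-1 minus WT. Untreated means in ein2-1 and WT were also unequal for AT5G48490 (8.6 and 10.6), AT3G50560 (6.0 and 7.8) and AT2G40435 (7.5 and 5.6). After 10 h of elf18, ein2-1 and WT had near-equal means for AT3G50560 (3.21 and 3.19), AT2G40435 (2.14 and 2.08) and AT3G15310 (2.08 and 2.10). For these genes the difference in change mostly repeats the difference at 0 h.

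At 2 h of Pep2, bak1-3 minus WT was -2.41 for AT1G63530 and -1.63 for AT3G10040, and the second lost its call without any of 9 of the 12 arrays. AT3G10040 ended at a mean of 2.12 in bak1-3 and 2.11 in WT, near the lowest table value. It had started from 6.16 and 4.52. AT1G63530 started at a mean of 4.9 in bak1-3 and 2.9 in WT, and after 2 h of Pep2 the means were 2.87 and 3.27.

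At 2 h of elf18, ein2-1 minus WT was -2.43 for AT1G63530, -1.69 for AT2G40435 and -1.61 for AT3G10040. It was 1.65 for AT3G54510, 1.98 for AT3G50560, 2.18 for NDB4, 2.29 for AT1G54050 and 2.53 for AT4G25250. AT2G40435, AT3G10040 and NDB4 each lost their call without any of 3 or 4 single arrays. AT3G10040 ended at a mean of 2.10 in both lines, from 6.13 in ein2-1 and 4.52 in WT at 0 h. AT2G40435 ended at 2.27 in ein2-1 and 2.10 in WT, from 7.5 and 5.6. Both ended near the lowest table value, so their differences are limited by it. AT1G63530 started at 5.3 in ein2-1 and 2.9 in WT. AT3G54510 started at 3.3 in ein2-1 and 5.1 in WT, and ended at 2.4 and 2.5.

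At 2 h of Pep2, ein2-1 minus WT was -2.94 for AT1G63530, -2.05 for AT4G24110, -1.68 for AT2G40435, -1.59 for AT3G10040 and -1.24 for AT1G60730. It was 1.45 for AT3G54510, 1.73 for AT2G27420, 1.84 for AT1G18810, 2.61 for AT3G50560 and 3.43 for M17. The means in ein2-1 and WT after 2 h of Pep2 were 2.13 and 2.11 for AT3G10040 and 2.4 and 2.2 for AT2G40435. For AT3G54510 they were 2.3 and 2.7. These values lie near the lowest table value, and the 0 h means given above were unequal. M17, AT1G63530 and AT4G24110 also differed at 0 h, as given above. AT1G60730 lost its call without any of 8 of the 12 arrays, AT2G27420 without any of 4, AT2G40435 without replicate 3 of untreated WT (-1.36) or replicate 1 of untreated ein2-1 (-1.58), AT3G54510 without replicate 1 of untreated ein2-1 (1.29), and AT1G18810 without replicate 2 of WT at 2 h (1.49).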

How the results depend on the processing

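The 44 counts of members called lower or higher gave 396 values under alternatives other than leaving out an array, and 369 of these were within 1.5 times the reported count. Every count of members called lower at 10 h or 2 h against 0 h was among them. The exceptions were mostly small counts, and the cause was not tested except where fewer probe sets, fewer arrays or no fold limit is itself the change. With no fold minimum, members called higher numbered 13 (WT elf18) and 12 (WT Pep2) from 2 h to 10 h, 9 (ein2-1 elf18) from 2 h to 10 h, 52 and 36 in elf18 minus Pep2 at 10 h and 2 h, and 29 in ein2-1 minus WT at 0 h. For ein2-1 given elf18, 10 h against 2 h, 8 were called higher under quantile normalization, median centring or array weights. Array weights also gave 2 lower and 5 higher in bak1-3 minus WT at 0 h, 3 higher for the bak1-3 difference in response at 2 h and 5 lower for the ein2-1 difference at 2 h of elf18. A filter at 7 gave 1 higher in bak1-3 minus WT at 0 h, 0 lower for the bak1-3 difference at 2 h, 0 lower and 4 higher for the ein2-1 difference at 2 h of elf18, and 4 lower for it at 2 h of Pep2. With only the groups compared in the fit, 0 were higher in bak1-3 minus WT at 0 h, 1 was lower for the bak1-3 difference at 2 h, 1 was lower and 5 higher for the ein2-1 difference at 2 h of elf18, and 4 were lower for it at 2 h of Pep2. Without the filter, the ein2-1 difference at 10 h had 8 lower and at 2 h of Pep2 5 lower, and the bak1-3 difference at 2 h had 1 lower and 0 higher.

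Leaving out 1 array gave 204 to 226 members called lower in the responses of WT and ein2-1 at 10 h and 202 to 206 in bak1-3. Ranges for the small counts were 4 to 10 higher (WT Pep2, 10 h against 2 h), 5 to 9 higher (ein2-1 elf18, 10 h against 2 h), 15 to 21 lower (ein2-1 minus WT at 0 h), and 0 to 1 lower and 1 to 4 higher (bak1-3 minus WT at 0 h). For differences in response they were 8 to 19 lower (ein2-1 at 10 h of elf18), 1 to 3 lower and 0 to 1 higher (bak1-3 at 2 h), 1 to 6 lower and 5 to 10 higher (ein2-1 at 2 h of elf18), and 3 to 14 lower and 9 to 19 higher (ein2-1 at 2 h of Pep2). The arrays concerned are named beside these counts in the report.

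The number of members was 405 at a membership threshold of -1.5 and 165 at -2.5. A filter at 7 gave 220, and leaving out 1 array of efr-1 or pepr1-1 pepr2-3 gave 238 to 250. With the replicate number as a block, 213 members were called lower in WT given elf18 and 226 in WT given Pep2 at 10 h, and no count moved by more than 1.5 times. Named genes had 774 called changes, with 11080 values under alternatives, of which 10699 kept the direction and the call, 381 kept the direction but lost the call, and 0 turned.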

Other observations

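Some listed anthocyanin and starch genes outside the members, picked here after their values were seen, were higher in the receptor lines at 10 h than at 0 h. Of 5 measured flavonoid and anthocyanin genes, 2 changed by 1 or more and 1 by -1 or less in efr-1. In pepr1-1 pepr2-3, 1 of the 5 changed by 1 or more and 0 by -1 or less. The 2 measured starch genes changed by 1 or more in each line. APL3, a large subunit of the starch-synthesis enzyme ADP-glucose pyrophosphorylase, changed by 2.09 in efr-1 and 3.23 in pepr1-1 pepr2-3, given without a test. In limma it was called higher in WT given Pep2 (3.59) and in bak1-3 given Pep2 (3.84), and was not called in WT given elf18 (0.63). DFR, which makes anthocyanin precursors, changed by 1.85 in efr-1 and 0.98 in pepr1-1 pepr2-3, and was called lower in WT given elf18 (-3.95) and in ein2-1 given elf18 (-5.80). AT4G14090, an anthocyanin glucosyltransferase gene, changed by 2.40 in efr-1 and 2.14 in pepr1-1 pepr2-3, and was called lower in WT given elf18 (-1.17) and higher in WT given Pep2 (1.60).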
